A study of Mus musculus with 12 samples.

Results

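This account follows 10 genes of MHC class I antigen presentation and the immunoproteasome in M-MDSCs (monocytic myeloid-derived suppressor cells) of aged and young mice. The genes were H2-K1, H2-D1, B2m, Tap1, Tap2, Tapbp, Psmb8, Psmb9, Psmb10 and Nlrc5. The rule names them and uses no measured value, though they were chosen with earlier results of these data known. Each matched a single row among the 23420 genes of the count table. Sorting of bone marrow cells, from the tibia by the labels, took those that were CD11b+Ly6G-Ly6Chi. The aged group held 6 male C57BL/6JNIA mice of 24 months and the young group 6 male mice of 6 months of that strain, with 1 library per mouse and no treatment or modified allele named for either age. Bulk RNA sequencing of the sorted cells asked how transcription in M-MDSCs differs with age. A level measured in bulk RNA does not tell fewer cells of a type from less RNA per cell.

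Class I molecules display short peptides from inside the cell to CD8 T cells. The heavy chains H2-K1 and H2-D1 pair with the light chain B2m, the transporter formed by Tap1 and Tap2 moves peptides into the endoplasmic reticulum, and tapasin (Tapbp) holds empty class I molecules at the transporter while peptides are loaded. Psmb8, Psmb9 and Psmb10 are the catalytic subunits that replace Psmb5, Psmb6 and Psmb7 in the immunoproteasome, which is known to favour peptides with ends that fit class I molecules. Nlrc5 is the transactivator of class I genes and works together with the factors that bind the X and Y boxes of their promoters. Interferons are known to raise the transcription of most of these genes.

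Of the 10 genes, 7 lay on chromosome 17, in the H2 complex (the mouse MHC), all within 1348020 bases. Psmb9, Tap1, Psmb8 and Tap2 stood in a row with no other gene of the table among them, from base 34182099 to base 34216321 (mm10). B2m was on chromosome 2, from 122147687 to 122153082, and Psmb10 and Nlrc5 were on chromosome 8, from 105935728 to 105938392 and from 94472763 to 94527272. The start sites of Psmb9 (minus strand) and Tap1 (plus strand) had 225 bases between them, so that the same stretch lies before both genes. H2-K1 (minus strand) spanned 33996012 to 34000333, H2-D1 (plus strand) 35263094 to 35267497 and Tapbp (plus strand) 33919478 to 33929290.

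The sequences before the start sites of the 3 genes that form the class I molecule and between Tap1 and Psmb9 are shown because these are the genes whose promoters carry the known class I elements or are shared. RefSeq (GRCm38.p6) gave a promoter for 8 of the 10 genes, all with the start site of the count table. Capitals mark matches to 4 motifs on either strand, the GGGGATT that opens the κB site of class I promoters, the interferon response element AANNGAAA, the TGACG of the X2 box and the ATTGG of the Y box. No match overlaps another. The sequences run 5′ to 3′ on the strand of the gene, the last one on the strand of Tap1, and end 1 base before the start site. They cover chr17:34000334-34000583 on the minus strand for H2-K1, chr17:35262844-35263093 on the plus strand for H2-D1, chr2:122147437-122147686 on the plus strand for B2m, and chr17:34187331-34187555 on the plus strand for the stretch between Tap1 and Psmb9.
H2-K1: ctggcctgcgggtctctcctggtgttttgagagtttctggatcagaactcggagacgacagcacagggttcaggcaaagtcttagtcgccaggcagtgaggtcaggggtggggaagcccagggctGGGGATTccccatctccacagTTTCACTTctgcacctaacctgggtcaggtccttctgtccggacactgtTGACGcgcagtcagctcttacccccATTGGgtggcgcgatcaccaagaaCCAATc
H2-D1: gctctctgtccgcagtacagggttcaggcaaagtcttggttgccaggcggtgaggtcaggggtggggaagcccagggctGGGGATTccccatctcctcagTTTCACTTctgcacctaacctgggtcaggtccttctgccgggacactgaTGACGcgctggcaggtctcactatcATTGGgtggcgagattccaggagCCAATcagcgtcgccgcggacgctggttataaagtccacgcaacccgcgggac
B2m: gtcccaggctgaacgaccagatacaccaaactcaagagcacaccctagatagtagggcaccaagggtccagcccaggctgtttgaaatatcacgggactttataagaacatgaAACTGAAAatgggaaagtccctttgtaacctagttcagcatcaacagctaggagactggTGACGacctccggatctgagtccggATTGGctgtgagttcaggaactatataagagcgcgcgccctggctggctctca
Tap1 and Psmb9: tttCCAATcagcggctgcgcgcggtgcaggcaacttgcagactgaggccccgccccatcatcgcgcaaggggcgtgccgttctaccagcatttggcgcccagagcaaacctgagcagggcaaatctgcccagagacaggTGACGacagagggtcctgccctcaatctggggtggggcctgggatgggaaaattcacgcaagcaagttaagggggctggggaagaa

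GGGGATT stood in the 250 bases before H2-K1 and H2-D1, but not before the other 6 genes, and in 2.78% of the 27025 genes of the promoter table. The windows of H2-K1 and H2-D1 were alike in 82.8% of 204 bases when shifted by 46 bases. All 3 genes of the class I molecule had a match to the interferon response element (21.6% of all genes), to TGACG (17.9%) and to ATTGG (34.5%). Tap1 and Psmb9 shared 1 match to TGACG and 1 to ATTGG, and Tapbp had 2 matches to ATTGG. Psmb8 and Psmb10 had no match to these letters in this window. A match is a stretch of letters and not a measured site.

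Library totals were 8737941 to 16300374 fragments in aged and 4613239 to 9079237 in young mice. Levels are given in CPM, counts relative to the library total after scaling of the libraries with TMM (trimmed mean of M values) factors. Classical monocyte genes were present, with Ly6c2 at 605 to 799 CPM in aged and 367 to 595 CPM in young mice, but the monocyte genes Ccr2 and Csf1r stood only at 8.71 and 36.5 CPM per kilobase in aged mice, against 7620 CPM per kilobase for the neutrophil granule gene Ltf. The 10 neutrophil markers summed to 120000 to 143000 CPM in aged and 76500 to 120000 CPM in young mice, next to 6960 to 9190 and 8050 to 8910 CPM for the 10 monocyte markers. S100a8, S100a9, Retnlg and Cxcr2 of the neutrophil list are also among the genes with which the paper scored M-MDSCs. S100a8 and S100a9 were at means of 35800 and 21500 CPM in aged mice. Ltf and Ngp, not among those genes, were at means of 20900 and 39600 CPM in aged mice. Most of the monocyte sum came from Chi3l3 and Itgam, which are also known from neutrophils, and without them it was 805 to 1210 CPM in aged and 795 to 929 CPM in young mice. Of the monocyte markers, 3 of 10 were called higher and 1 lower in aged mice (median log2 fold change 0.03), next to 22.4% of all genes called higher and 2240 of 9742 lower. With a correction for gene length none of them was called (median -0.07). Of the neutrophil markers, 7 of 10 were called higher in aged mice (median log2 fold change 0.51), where 22.4% of all genes were, and with a correction for gene length 1 of 10 was (median 0.14), where 17.4% of all genes were. Without young mice 5 and 6, 4 of the 10 were called higher (median 0.28), next to 14.1% of all genes. The libraries are called M-MDSCs here after their labels. The 10 resident macrophage markers summed to 88.7 to 1160 CPM in aged mice, highest in aged mouse 1, and to 77.5 to 96.8 CPM in young mice, with 9 of 9 tested markers called higher in aged mice (median log2 fold change 2.51). Without aged mouse 1 the count was 8 of 9 (median 1.59, next to 21.2% of all genes), and without young mice 5 and 6 it was 7 of 9 (next to 14.1% of all genes). The part of neutrophils and macrophages in the results was not tested.

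Short genes were also higher and long genes lower in aged mice. Over all 9742 genes tested, the log2 fold change fell with gene length (Spearman's rho -0.483 across genes, which are not independent replicates). Young mice 5 and 6 stood apart from the other young mice in this respect, with genes under 1500 bases at a median of -0.369 and -0.339 log2 units from their mean over all mice, against -0.172 to -0.0208 in the other young mice. Aged mouse 7, at 0.0738, was nearest to the young mice among the aged, whose other values were 0.172 to 0.249. The alignment files of the young mice were numbered 11 to 16 and those of the aged mice 17 to 19 and 24 to 26, so that age and a change of preparation between these numbers cannot be told apart.

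Most of the class I presentation genes were higher in aged M-MDSCs, with some of the calls resting on how gene length was treated. By edgeR's quasi-likelihood test with Benjamini-Hochberg adjustment over all genes, 8 of the 10 genes were higher in aged mice, none was lower, and Tap2 and Nlrc5 did not pass the threshold of 0.05 on the adjusted p-value. Of all genes tested, 22.4% (2185 genes) were called higher and 45.4% in either direction. The median log2 fold change of the 10 genes was 0.54, against 0.0062 over all genes. The levels of Tap1, Psmb9 and Psmb10 did not overlap between the ages, with every aged mouse above every young mouse, which was the case for 9.68% of all genes. Without young mice 5 and 6, a check chosen after seeing the data, the same 8 genes were called, with log2 fold changes of 0.30 (Tapbp) to 0.55 (Psmb8, Psmb9), where 14.1% of all genes were called higher. With a correction for gene length 7 of the 10 genes were called, with Nlrc5 and without H2-K1 and B2m, next to 17.4% of all genes. With that correction and the replicate number as a block, on 8 mice, 2 of the 10 genes were called (Tap1 and Psmb10). In that fit 687 of 9821 genes were called higher. The log2 fold changes of the others of the 8 genes then ran from 0.31 (B2m, Psmb9) to 0.59 (Tapbp).

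**Figure D1:**
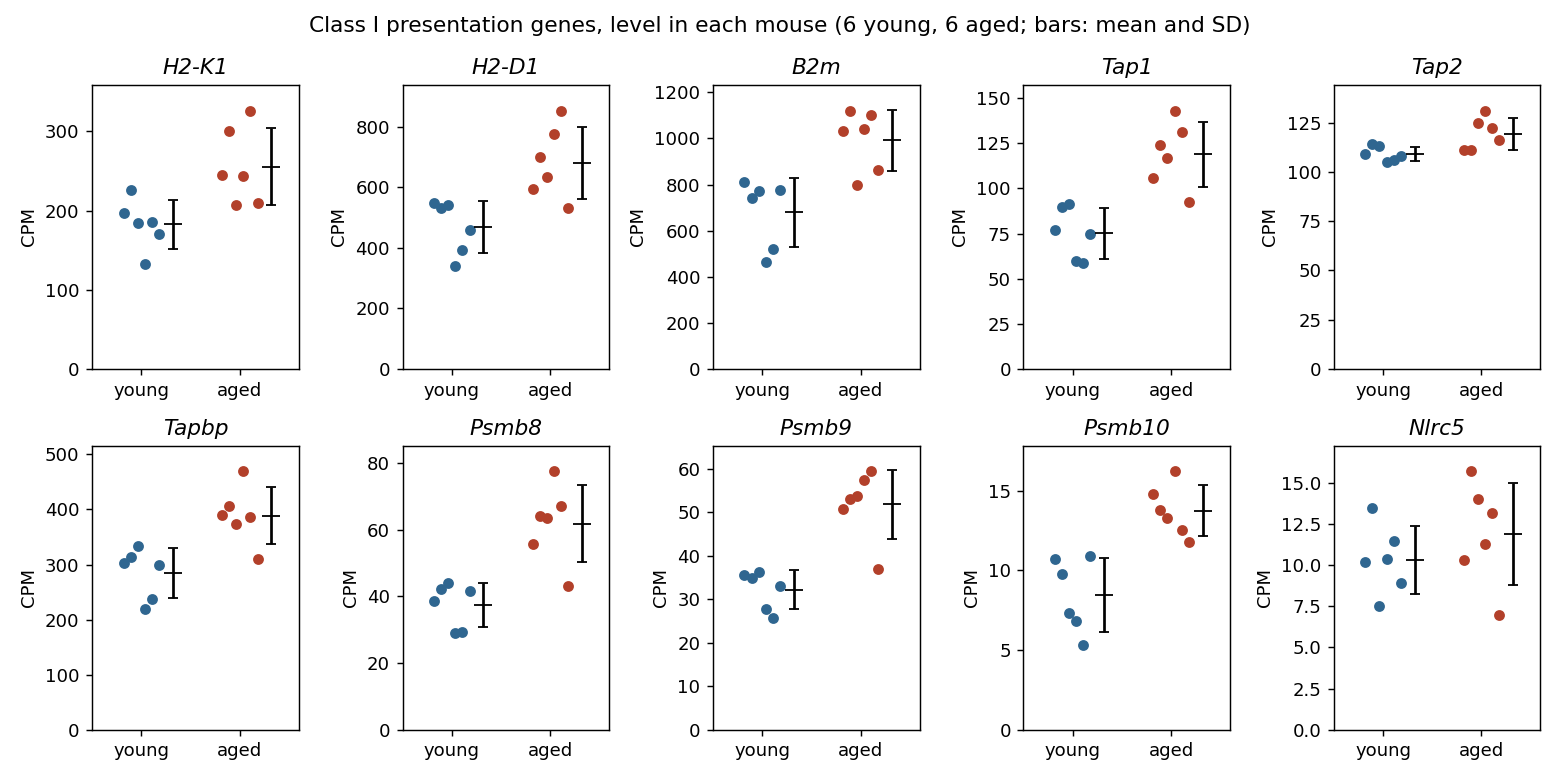
Level of each of the 10 genes in CPM (vertical axes, from 0) in each of 6 young (blue) and 6 aged (red) mice, with the mean and SD of each age as black bars. In the panels of Tap1, Psmb9 and Psmb10 every aged mouse lies above every young mouse, while in those of Tap2 and Nlrc5 the ages overlap and no difference was called.

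H2-D1, one of the classical heavy chains of this strain, was at 532 CPM in the lowest aged mouse, 667 CPM at the median and 853 CPM in the highest, against 340, 494 and 547 CPM in young mice. Only the lowest aged mouse, mouse 7, reached into the range of the young mice. H2-D1 had a log2 fold change of 0.54 ± 0.134 (SE, n = 6 per age), with an adjusted p of 0.00461 by edgeR's quasi-likelihood test. The other heavy chain, H2-K1, ranged from 207 to 326 CPM around a median of 244 CPM in aged mice and from 132 to 226 CPM around 185 CPM in young mice. Its ranges overlapped between the ages. Its log2 fold change was 0.49 ± 0.131 (SE, n = 6 per age), with an edgeR adjusted p of 0.00771, and with a correction for gene length it was not called (0.31, edgeR adjusted p = 0.0638).

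B2m, the light chain shared by all class I molecules, had the highest level per kilobase of the 10 genes. It was at 799 CPM in the lowest, 1040 CPM in the median and 1120 CPM in the highest aged mouse, and at 462, 757 and 810 CPM in young mice. The ages overlapped only through the lowest aged mouse, mouse 4, and the highest young mouse, mouse 10. B2m had a log2 fold change of 0.54 ± 0.139 (SE, n = 6 per age), with an edgeR adjusted p of 0.00566. With a correction for gene length it came to 0.18 and was not called (edgeR adjusted p = 0.179). The ratios of H2-K1 and H2-D1 to B2m within a library differed between the ages by log2 values of -0.08 and -0.02, given with no test because these pairs were chosen after the values were seen. The heavy chains have near-identical relatives, and fragments with a mapping quality under 60 were left out of the counts. How fragments fitting several places were scored is not known, as the aligner is not given. On H2-D1, 1060 of 1736 exon bases (61.1%) were also annotated to H2-L on the same strand, which held 0 to 5 counts per mouse, and divided by its 676 unshared bases alone the level of H2-D1 was 1010 CPM per kilobase in aged and 693 in young mice.

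Of the subunits of the peptide transporter, Tap1 was called and Tap2 was not. Tap1, whose product binds and hydrolyses ATP together with that of Tap2, was at 92.7, 120 and 143 CPM in the lowest, median and highest aged mouse and at 58.8, 75.7 and 91.3 CPM in young mice. The 6 aged mice were all above the 6 young mice. Its log2 fold change was 0.67 ± 0.126 (SE, n = 6 per age), with an edgeR adjusted p of 0.000827. Tap2 was at 111, 119 and 131 CPM in aged and at 105, 108 and 114 CPM in young mice. The young range was narrow and the ages overlapped. The log2 fold change of Tap2 was 0.13 ± 0.0592 (SE, n = 6 per age), with an edgeR adjusted p of 0.0847, and 6 of 6 aged mice were above the young mean. Counted per base within each library, Tap1 stood at 0.673 to 0.945 of Tap2 in aged mice (median 0.856) and at 0.468 to 0.680 in young mice (median 0.591). These ratios overlapped only by a narrow margin, and their mean log2 difference of 0.54 is given with no test, since this pair was singled out after its values were seen. Both genes lie in the same cluster and are of like length over exons, 2950 bases for Tap1 and 2490 for Tap2.

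Tapbp was at 310, 388 and 469 CPM in the lowest, median and highest aged mouse and at 220, 301 and 333 CPM in young mice. Here again the lowest aged mouse, mouse 7, was the only one inside the young range. Tapbp had a log2 fold change of 0.46 ± 0.111 (SE, n = 6 per age), with an edgeR adjusted p of 0.00429.

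All 3 immunoproteasome subunits were called higher in aged mice. Psmb8, the chymotrypsin-like subunit, was at 43.0, 63.7 and 77.4 CPM in the lowest, median and highest aged mouse and at 29.1, 40.1 and 43.9 CPM in young mice. The lowest aged and the highest young mouse met in a narrow overlap. Psmb8 had a log2 fold change of 0.73 ± 0.14 (SE, n = 6 per age), with an edgeR adjusted p of 0.000935. Psmb9, which takes the place of Psmb6, was at 37.0, 53.4 and 59.4 CPM in aged and at 25.7, 34.0 and 36.2 CPM in young mice. The ages did not overlap, although aged mouse 7 came close to the highest young mouse. The log2 fold change was 0.69 ± 0.119 (SE, n = 6 per age), with an edgeR adjusted p of 0.000438. Psmb10, the trypsin-like subunit, was the least abundant of these subunits per kilobase, at 11.8, 13.5 and 16.2 CPM in aged and at 5.30, 8.53 and 10.9 CPM in young mice. The ages did not overlap, and 34 to 188 fragments per mouse lay behind these levels. The log2 fold change was 0.70 ± 0.163 (SE, n = 6 per age), with an edgeR adjusted p of 0.00321.

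Nlrc5, the transactivator, was at 6.95, 12.2 and 15.7 CPM in the lowest, median and highest aged mouse and at 7.50, 10.3 and 13.5 CPM in young mice, from 35 to 139 fragments. Both the lowest and the highest value belonged to aged mice. The log2 fold change of 0.19 ± 0.182 (SE, n = 6 per age) had an edgeR adjusted p of 0.412.

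Called genes were unequally spread over gene length. Of the 1671 genes under 1500 bases, the class of B2m, Psmb8, Psmb9 and Psmb10, 49.3% were called higher in aged mice, with a median log2 fold change of 0.38. Of the 3427 genes of 1500 to 3000 bases, the class of H2-K1, H2-D1, Tap1, Tap2 and Tapbp, 26.4% were called higher, with a median of 0.09. Of the 1786 genes over 5000 bases, the class of Nlrc5, only 4.65% were called higher and 55.8% were called lower, with a median of -0.31. Nlrc5 thus stood above the median of genes of its length class, although its own difference was not called.

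**Figure D2:**
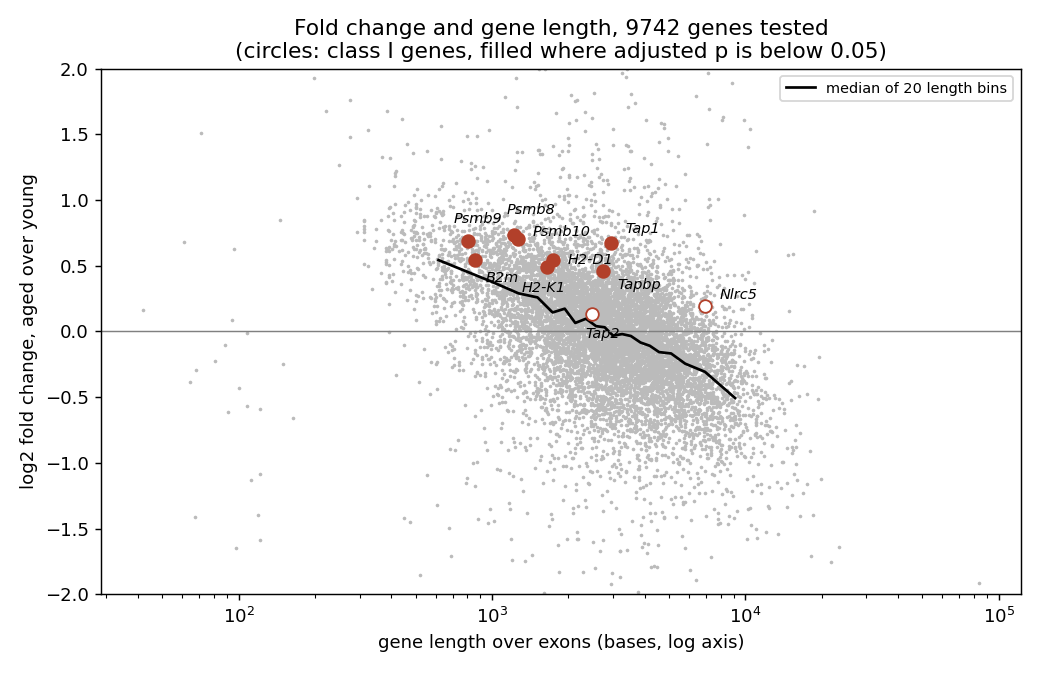
Log2 fold change of aged over young mice (vertical axis) against gene length over exons in bases (horizontal log axis) for the 9742 genes tested (grey points, of which 48 lie beyond the axis), with the median of 20 length bins as a black line and the 10 class I genes as red circles, filled where the adjusted p passed 0.05. The line falls from short to long genes, and each of the 10 genes lies above it.

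After the trend of counts with gene length had been removed from every library with a fitted offset, 7 of the 10 genes were called higher, next to 17.4% of all genes. Tap1 was hardly moved by the offset, with a log2 fold change of 0.68 ± 0.135 (SE, n = 6 per age) and an edgeR adjusted p of 0.0019. Tapbp kept a log2 fold change of 0.44 and H2-D1 one of 0.39, with adjusted p-values of 0.0107 and 0.0313. Psmb8 came down to 0.46, Psmb10 to 0.45 and Psmb9 to 0.29, all still called. H2-K1 at 0.31 and B2m at 0.18 were no longer called. Nlrc5 stood at 0.52 ± 0.188 (SE, n = 6 per age) and was called with an adjusted p of 0.0445, in this setting alone among those tried. Tap2 stayed uncalled at 0.09 (edgeR adjusted p = 0.329).

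**Figure D3:**
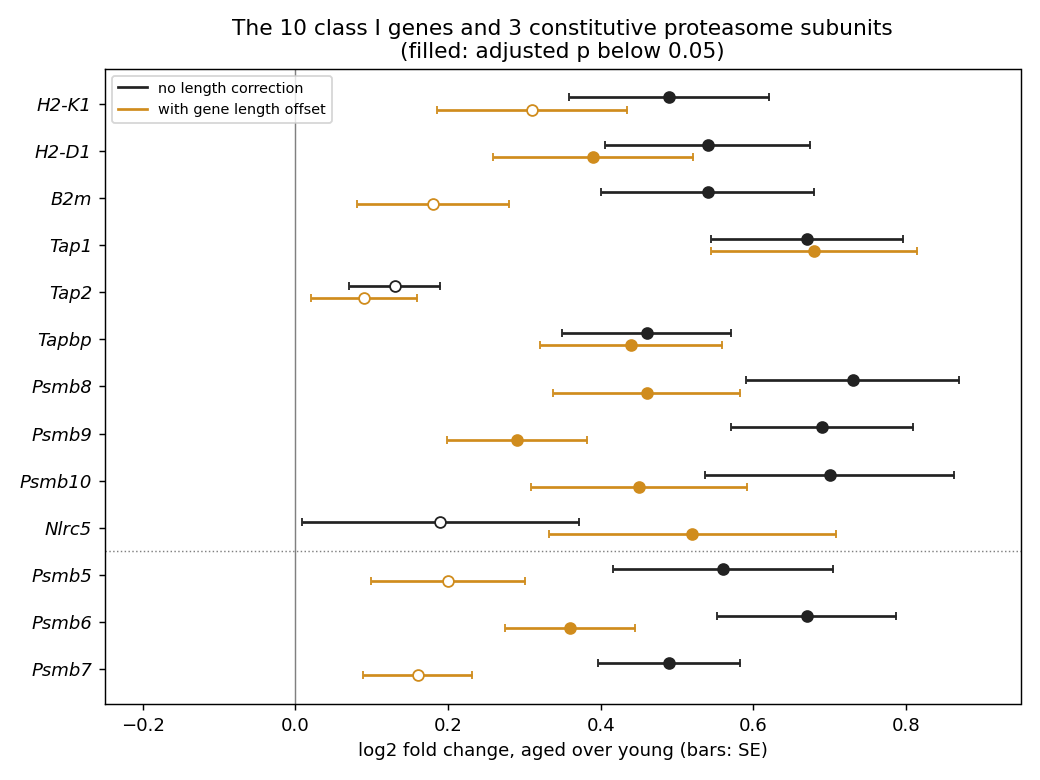
Log2 fold change of aged over young mice (horizontal axis, with SE as bars) of the 10 class I genes and, under the dotted line, of the 3 constitutive proteasome subunits, without (black) and with (orange) the gene length offset. Filled circles passed an adjusted p of 0.05. Tap1 stays in place, B2m and the proteasome subunits move towards 0, and Nlrc5 moves away from it.

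Compared per kilobase of exon, the levels of the 10 genes spanned a wide range. In young mice B2m was highest at 793 ± 175 CPM per kilobase (SD, n = 6), followed by H2-D1 at 270 ± 50.1. The H2-D1 value divides by all its exon bases, of which 61.1% are shared with H2-L. Over the unshared bases alone H2-D1 stood nearer to B2m, at 693 CPM per kilobase in young and 1010 in aged mice. H2-K1 at 111 and Tapbp at 103 CPM per kilobase overlapped over mice. Then came Tap2 at 43.8, Psmb9 at 40.0, Psmb8 at 30.6 and Tap1 at 25.5 CPM per kilobase, where each gene overlapped with the next. Psmb10 at 6.65 and Nlrc5 at 1.49 CPM per kilobase were lowest and overlapped with none. In aged mice the order was the same at the top and at the bottom, with B2m at 1160 and Nlrc5 at 1.71 CPM per kilobase. In the middle Psmb9 at 64.4 and Psmb8 at 50.5 CPM per kilobase stood before Tap2 at 47.9 and Tap1 at 40.3 CPM per kilobase, and these 4 genes again overlapped from each to the next.

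Whether immunoproteasome subunits differed from their constitutive counterparts in their change with age was examined from the ratio of paired subunits within a library. No difference was called. Psmb8 stood at a median of 1.32 times Psmb5 per base in aged mice (1.08 to 1.56) and of 1.23 times in young mice (0.877 to 1.43). The log2 ratio differed by 0.12 (95% interval -0.19 to 0.44, n = 6 per age, exact two-sided permutation test p = 0.42, adjusted over 3 pairs 0.63). Psmb9 stood at 1.13 times Psmb6 in aged mice (0.91 to 1.22) and at 1.15 times in young mice (0.842 to 1.24), a difference of -0.01 on the log2 scale (95% interval -0.22 to 0.22, exact p = 0.92, adjusted 0.92). Psmb10 stood at 0.178 of Psmb7 in aged and at 0.170 in young mice (medians), a difference in mean log2 ratio of 0.23 (95% interval -0.05 to 0.54, exact p = 0.113, adjusted 0.338). In each pair the ages overlapped. The intervals come from inverting the permutation test and leave room for a shift of up to 0.44 for Psmb8, 0.22 for Psmb9 and 0.54 for Psmb10.

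**Figure D4:**
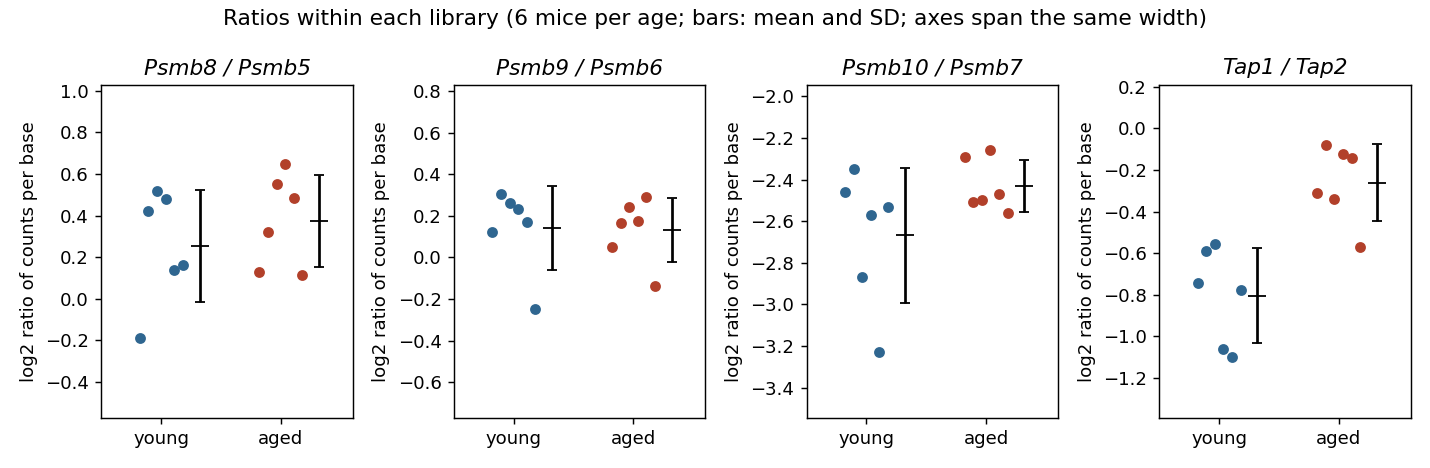
Log2 ratio of counts per base within each library (vertical axes, all of the same width) for 3 pairs of immunoproteasome and constitutive subunits and for Tap1 over Tap2, in 6 young (blue) and 6 aged (red) mice, with mean and SD as black bars. The proteasome ratios overlap between the ages, and the Tap1 to Tap2 ratio of 5 of 6 aged mice lies above that of every young mouse.

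The constitutive subunits themselves were higher in aged mice, as were most activators of the proteasome. Psmb6 had a log2 fold change of 0.67 ± 0.117, Psmb5 of 0.56 ± 0.144 and Psmb7 of 0.49 ± 0.093 (SE, n = 6 per age), all called by edgeR with adjusted p-values of 0.000486 to 0.00562. All 3 are shorter than 1500 bases, a class in which 49.3% of genes were called higher, against 22.4% of all genes. On Psmb5, 109 exon bases were also annotated to Mir686 on the same strand. With the gene length offset Psmb6 was still called at 0.36, while Psmb5 at 0.20 and Psmb7 at 0.16 were not. Of 6 activators and assembly factors, 4 were called higher and none lower, with a median of 0.31, next to 22.4% of all genes and 49.3% of genes under 1500 bases, the class of Psme1, Psme2 and Pomp. Psme2 (0.69) and Psme1 (0.46), the subunits of the interferon-inducible PA28 cap, the assembly chaperone Pomp (0.33) and the nuclear cap subunit Psme3 (0.21) were called, and Psme4 (-0.17) and the inhibitor Psmf1 (0.29) were not. Without young mice 5 and 6, Pomp was not called (0.22). With the length offset 2 of these 6 genes were called higher, next to 17.4% of all genes.

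Of 11 other genes of peptide loading and trimming tested, 1 was called higher and 3 lower, with a median log2 fold change of 0.05. The share called lower was near that of all genes (2240 of 9742), and 22.4% of all genes were called higher. Without aged mouse 1, or without young mice 5 and 6, 1 of the 11 was called lower, next to 2120 of 9780 and 1765 of 9857 genes. The aminopeptidase Lap3 was the one higher, at 1.39 to 7.25 CPM in aged and 0 to 1.02 CPM in young mice, from 0 to 65 fragments per mouse. Its log2 fold change of 2.23 ± 0.53 (SE, n = 6 per age) had an edgeR adjusted p of 0.00359. The glycoprotein sensor Uggt1 (-0.27) and the peptidases Npepps (-0.23) and Tpp2 (-0.18) were lower in aged mice. With the length offset 2 of the 11 genes were called higher, near the 17.4% of all genes, and none lower, next to 1567 of 9742 genes. Without young mice 5 and 6, and in several of the fits with a single mouse left out, Npepps and Tpp2 were not called. Of 28 other class I and class I-like heavy chains, 8 had enough counts to be tested, and 2 of these were called higher, a share near the 22.4% of all genes, with a median of 0.50 over the 8. The count rested on single mice. Without aged mouse 1, in which the macrophage markers were highest, 1 of the 8 was called higher, next to 21.2% of all genes. The count was 5 of the 8 without aged mouse 7 (24.1% of all genes) and 1 of the 8 without young mice 5 and 6 (14.1%). H2-T23, which encodes the Qa-1 ligand of NK cell receptors, was at 109 to 178 CPM in aged and 95.9 to 115 CPM in young mice, with a difference of 0.41 on the log2 scale. Fcgrt, which encodes the neonatal Fc receptor, had a log2 fold change of 1.41 from 4 to 99 fragments per mouse. Without aged mouse 1 the value for Fcgrt was 0.88 and not called (edgeR adjusted p = 0.0727), and without young mouse 5 it was 1.38 and not called either (0.0518).

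Among 22 regulators of class I transcription, 5 were called higher and 5 lower, with a median log2 fold change of -0.01, shares near those of all genes (22.4% higher, 2240 of 9742 genes lower). Nfya, a subunit of the factor that binds the Y box, had the largest change, at 53.0 to 68.8 CPM in aged and 76.1 to 105 CPM in young mice. These ranges did not overlap, and the log2 fold change was -0.65 ± 0.0934 (SE, n = 6 per age), with an edgeR adjusted p of 0.000127. Ifngr1, a chain of the interferon gamma receptor, was higher by 0.49 and Irf9, which takes part in the response to type I interferon, by 0.48 on the log2 scale, the latter not called without young mice 5 and 6 (0.40). Irf1, named here for its role in interferon signalling after its values were seen, had a log2 fold change of -0.01 (edgeR adjusted p = 0.957). With the length offset 4 of the 22 were higher and 2 lower, next to 17.4% of all genes higher and 1567 of 9742 lower. When young mice 5 and 6 were left out, 2 of the 22 were higher and 5 lower, with a median of -0.09. Of all genes in that fit, 14.1% were higher and 1765 of 9857 lower.

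Many interferon-stimulated genes outside antigen presentation were higher in aged mice. Of 26 tested, 17 were called higher and 2 lower, with a median log2 fold change of 0.73. Of all genes, 22.4% were called higher and 2240 of 9742 lower. With the length offset 16 of the 26 were called higher, next to 17.4% of all genes. Ifit3 (1.37) and Rtp4 (1.35) were higher, and Mx1 (-1.84), at 0 to 1.67 CPM in aged and 0.977 to 3.67 CPM in young mice, was lower. The value for Ifit3 rested on aged mouse 5, as the aged mice lay at 3.70 to 21.9 CPM around a median of 4.50 CPM and the young mice at 2.24 to 3.47 CPM, and without that mouse the log2 fold change was 0.60, still called. Without young mice 5 and 6, neither Ifit3 (1.20) nor Mx1 (-1.12) was called. The 30 genes of the list summed to 865 to 1870 CPM in aged and to 717 to 861 CPM in young mice, lowest in aged mouse 7 and highest in aged mouse 5. Without aged mouse 5, 15 of the 26 were called higher and 4 lower, with a median of 0.46, next to 20.3% of all genes called higher. Without young mice 5 and 6, 10 of the 26 were called higher, next to 14.1% of all genes. Class II genes, which present peptides from outside the cell, were called higher in 5 of 7 cases with a median of 2.15, next to 22.4% of all genes. The antigen-presenting chains H2-Eb1 (2.39), H2-Aa (2.36) and H2-Ab1 (2.30) were called, and H2-DMb1 (0.91) and the class II transactivator Ciita (0.68) were not. Their levels were uneven among aged mice, as the 7 genes summed to 73.2 to 1220 CPM there and to 68.0 to 99.0 CPM in young mice. Aged mouse 1 was highest in the class II genes as in the macrophage markers, and without it 4 of 7 were called, with a median of 1.14, next to 21.2% of all genes. The log2 fold changes of the antigen-presenting chains then ran from 1.48 for H2-Ab1 to 1.61 for H2-Eb1, all still called.

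**Figure D5:**
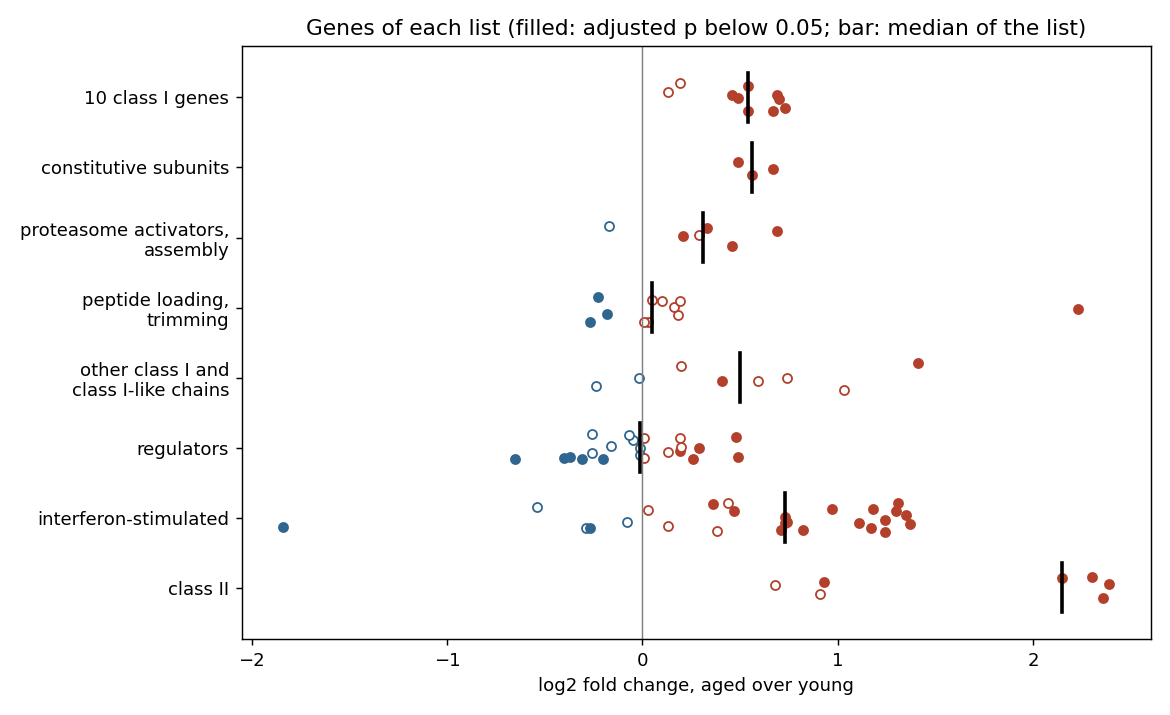
Log2 fold change of aged over young mice (horizontal axis) of each gene tested in 8 lists (rows), red above and blue below 0, filled where the adjusted p passed 0.05, with the median of each list as a black bar. The 10 class I genes and the constitutive subunits lie wholly above 0, the regulators lie on both sides of it, and the class II genes reach the highest values.

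Mice of the same age also differed in these genes. Among aged mice, mouse 7 was lowest in 7 of the 10 genes and mouse 5 highest in 5. Among young mice, mouse 5 was lowest in 6 genes and mouse 6 in 3, and mouse 2 was highest in 4. The macrophage markers summed to 1160 CPM in aged mouse 1, 373 in mouse 2, 223 in mouse 7, 218 in mouse 6, 141 in mouse 4 and 88.7 CPM in mouse 5, so that 5 of 6 aged mice were above every young mouse. Their part in the levels of the 10 genes was not tested. Without aged mouse 1 the same 8 genes were called. With the mean of each age removed, the log2 levels of pairs of the 10 genes correlated over 12 mice with a median r of 0.612 (0.00117 to 0.952, 45 pairs), given as a description since all genes of a mouse share its library and its length dependence. The closest pair, at 0.952, was Tap1 and Psmb8, neighbours on chromosome 17. Pairs with Nlrc5 had a median r of 0.261. The 3 genes most like Psmb9 by this measure, of 9741 compared, were Ccl6 (0.99), Vnn3 (0.979) and Txnip (0.977), and those most like H2-K1 were Isca1 (0.893), Fam220a (0.892) and Dusp5 (0.879). None of these 6 was one of the 10 genes, and none was called between the ages.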

How the data were processed

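Total RNA of sorted M-MDSCs was sequenced in pairs of reads from stranded libraries, 1 per mouse. The authors deposited raw counts of fragments per gene over the exons of a UCSC annotation of mm10, made with featureCounts 2.0.0 with a minimum mapping quality of 60 and reverse-stranded counting, and gene length from the same table. The aligner is not given in the sources used here. The deposited counts were not normalized. Groups came from the sample labels, and all 12 libraries were used. Library totals are given above, and p-values set the difference between the ages against the spread between mice.

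Aged and young mice were compared with edgeR 4.0.16 in R 4.3.3 (TMM factors, filterByExpr, quasi-likelihood test, Benjamini-Hochberg adjustment over 9742 genes tested, threshold 0.05). CPM are counts scaled to TMM-normalized totals. Standard errors were taken from the fold change and the F statistic. The script was first tested on simulated data with known changes. The biological coefficient of variation was 15.7%. No libraries agreed within sampling noise. Ratios of gene pairs were compared with exact permutation tests over mice (924 regroupings). Alternatives were DESeq2 1.42.0, limma-voom (limma 3.58.1), other scalings and filters, offsets for gene length (spline with 5 degrees of freedom) and GC content, thinning, subsets of mice and a replicate block. Values of gene and marker lists without single mice, and the monocyte sum without its most abundant markers, were added after seeing the data. GC content came from annotated transcripts and covered 9198 of the genes tested.

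The 10 genes and all lists were chosen with earlier results of these data known. Named were the 10 genes, the 3 largest changes among called genes of each list, the constitutive subunits, lists' uncalled genes (if at most 5), and the 3 genes most like Psmb9 and H2-K1. Any gene named outside these was picked with its values known. The other marker lists (dendritic, B and plasma, T and NK, erythroid cells and proliferation) summed to 8.59 to 25.2, 11.5 to 84.8, 8.52 to 37.9, 2.35 to 22.4 and 314 to 720 CPM in aged mice, and to 13.4 to 22.9, 11.6 to 38.9, 6.82 to 12.1, 0.586 to 2.14 and 620 to 1210 CPM in young mice. In these lists Cd8a, Hba-a1 and Hba-a2 were at 0 counts in every mouse. Hba-a1 and Hba-a2 share 1112 of their 1118 and 1126 exon bases on the same strand, so that their counts and the erythroid sum do not measure alpha globin.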

Additional observations from a re-analysis of the deposited data

Results flagged for a closer look

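In young mice the ratio of Psmb9 to Psmb6 counts per base was 0.842 in mouse 9, the lowest of 6, against 1.09 in the nearest of the others, a gap of 0.627 of the range of the group. Of 26 groups of values examined in this way, this was the only one with such a gap, and chance gives about 1 in 20.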

How the results depend on the processing

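The call of the 8 genes held when each mouse was left out in turn (8 of 10 each time), while the calls over all genes ranged from 3804 to 4717 (4425 with all mice) and those of the 50 other pathway genes from 20 to 27 (23 with all mice). The log2 difference in ratio ranged over these fits from 0.03 to 0.17 for Psmb8 to Psmb5, from 0.12 to 0.30 for Psmb10 to Psmb7 and from -0.09 to 0.04 for Psmb9 to Psmb6. The last also changed sign with the aged mice numbered 17 to 19 only (0.01) and without young mice 5 and 6 (0.02), and was never called. Of the 50 other pathway genes, 12 were called with the gene length offset, next to 3258 of all 9742 genes tested. With the aged mice numbered 24 to 26 only, a setting with fewer mice, 15 of the 50 were called, next to 3014 of 9943. Tap2 was called with upper quartile factors alone among the 13 settings tried beside leaving out mice (0.16, edgeR adjusted p = 0.0231). Scaling by library totals without TMM factors moved the median of all genes to -0.081 on the log2 scale, under which the 8 genes were still called. Psmb10 and Nlrc5 had as few as 34 and 35 fragments in a mouse. After thinning of every library to the lowest total, Psmb10 was still called, at 0.72, and Nlrc5 was not.

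The 4 replicate numbers shared by both ages did not pair the mice, as deviations of mice with the same number correlated at -0.246 to -0.0655. With the replicate number as a block, on 8 mice, 8 of the 10 genes were called higher, next to 1586 of all 9821 genes tested. The same mice without the block gave 8 of the 10, next to 2088 of 9821. With the block and the gene length offset together, 2 of the 10 genes (Tap1 and Psmb10) were called higher, next to 687 of 9821 genes. In either direction, 5 of 50 other pathway genes and 1624 of all 9821 genes were called in that fit. The log2 fold changes of the other 6 genes called with all mice were 0.59 for Tapbp, 0.55 for Psmb8, 0.51 for H2-D1, 0.41 for H2-K1 and 0.31 for both B2m and Psmb9, with edgeR adjusted p-values from 0.051 to 0.155. That fit has fewer mice, and the cause of its lower counts was not tested.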
